A study of Rattus norvegicus with 24 samples.

Results

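The genes described here are 4 genes of the red cell, Hbb, Hbb-b1, Alas2 and Slc4a1, together with Alox15, the 15-lipoxygenase. They are 5 of the 13841 genes that could be matched by name between the deposited tables of the 2 sexes. They were chosen because in these same libraries they varied together and differed with maternal diet, so their diet difference and their covariation are given below as descriptions without a test. All 5 passed the filter on low counts in every fit.

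RNA was sequenced from whole hypothalamus of Sprague Dawley rat pups at postnatal day 10 (PN10), with 6 libraries in each of 4 groups. The mothers of female and male CON-O ate a control diet (CON) with 12% of digestible energy from lipids. Those of female and male HFD-O ate a high fat diet (HFD) with 43%, from before mating until PN10. The labels do not give the litter of any pup, so p-values measure the spread between these libraries and treat them as independent. Libraries are named by the number in their title, odd for males and even for females, with 1 to 12 from CON-O and 13 to 24 from HFD-O.

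A mature red cell has no nucleus and makes no new RNA, but the reticulocyte, the young red cell just released into the blood, still carries the messenger RNA it was loaded with. Most of that RNA encodes haemoglobin, a tetramer of alpha and beta chains, each of which holds a haem group. Alas2 is the red cell form of aminolevulinate synthase, which starts haem synthesis in the mitochondrion, and Slc4a1 is band 3, the anion exchanger that anchors the membrane to its skeleton. Alox15 oxygenates polyunsaturated fatty acids, and is known in rabbit reticulocytes for its part in breaking down mitochondria as the cell matures. It is also known from macrophages and eosinophils of other species. A dissected brain also holds blood in its vessels and coverings.

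Of the 5 genes, 3 (Hbb, Hbb-b1 and Alas2) had an entry in the RefSeq promoter table used here (assembly GRCr8), and Slc4a1 and Alox15 did not. The 120 bases before the annotated start of Hbb, of Hbb-b1 and of a further beta-globin row named LOC689064 are shown because these are related beta-globin genes of chromosome 1, between which the counting of reads is uncertain. They lie at chr1:167663722-167663841 (Hbb), chr1:167643521-167643640 (Hbb-b1) and chr1:167631631-167631750 (LOC689064, matched by its gene ID to the reference name Hbb-bs), all on the minus strand, and are written 5′ to 3′. Capitals mark 3 short motifs of globin promoters on the strand shown: the box with the letters CACCC, the box with the letters CCAAT and the TATA-like element with the letters ATAAA.
Hbb: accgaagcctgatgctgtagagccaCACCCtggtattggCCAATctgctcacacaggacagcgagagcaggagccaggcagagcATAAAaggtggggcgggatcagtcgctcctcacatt
Hbb-b1: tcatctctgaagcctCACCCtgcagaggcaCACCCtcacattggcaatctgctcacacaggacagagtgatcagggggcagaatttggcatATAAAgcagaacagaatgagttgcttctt
LOC689064: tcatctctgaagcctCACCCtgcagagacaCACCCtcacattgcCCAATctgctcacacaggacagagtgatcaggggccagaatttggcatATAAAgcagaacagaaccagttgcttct

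Hbb held each motif once on the strand shown, with CCAAT at positions -81 to -77 and the TATA-like element at -36 to -32, where -1 is the base before the start. LOC689064 held CACCC at 2 places and both other motifs. Hbb-b1 had CACCC at 2 places and the TATA-like element, but CCAAT only on the opposite strand, at -81 to -77. In Hbb the opposite strand held CCAAT too, at -86 to -82, directly before the match in capitals and with no shared base. Among 27457 promoters of the same length, 14.5% held CACCC on the gene's own strand (29.4% on either strand), 10.6% held CCAAT (20.1%) and 13.4% held ATAAA (21.5%). All 3 together on the gene's own strand stood in 0.226%. Aligned over these bases, Hbb-b1 and LOC689064 were 94.2% identical, and Hbb was 67.5% identical to each of them. The motifs are matches of letters and were not tested for binding.

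Library totals ran from 6132112 to 7994399 counts. Of the peptide genes of hypothalamic neurons, vasopressin (Avp) stood at 73.0 to 239 CPM and orexin (Hcrt) at 21.3 to 66.1 CPM, where CPM is a gene's share of its library's counts, scaled to a fixed total and by the TMM method over all 24 libraries. Agrp and Pomc, the markers of the feeding neurons of the arcuate nucleus, ran from 0.301 to 15.3 CPM (median 9.64) and from 5.41 to 34.7 CPM (median 26.3), and male CON-O library 11 was the lowest in both (next 5.01 and 15.97 CPM). The 6 haemoglobin rows (Hbb, Hbb-b1, LOC689064, Hba1, Hba2 and LOC287167) together took between 0.0543% and 0.626% of a library's counts. Their median share was 0.0843% in female CON-O, 0.238% in female HFD-O, 0.0913% in male CON-O and 0.165% in male HFD-O. The highest share of each sex was in HFD-O, 0.626% in library 22 (95% exact binomial interval 0.620 to 0.632, which covers counting error only) and 0.581% in library 21. In whole tissue, fewer red cells and less RNA per red cell cannot be told apart.

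Hbb, a beta chain of adult haemoglobin, varied 13.6-fold over the 24 libraries. In female CON-O it stood at 179 CPM in the lowest library, 223 at the median and 569 in the highest. Female HFD-O had 213 CPM in the lowest library, 739 at the median and 2005 in the highest. The ranges overlapped, since female HFD-O libraries 16 and 20 lay among the CON-O values while 4 of 6 HFD-O libraries exceeded the highest CON-O library. In males, Hbb ran from 155 CPM through a median of 243 to 1033 in CON-O, and from 147 CPM through 489 to 1888 in HFD-O. Here the lowest library of all was an HFD-O one (library 19), and 1 of 6 HFD-O libraries, library 21, exceeded the highest CON-O library, library 1.

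Hbb-b1, a second beta chain, followed Hbb closely. It had 32.2, 42.9 and 100.01 CPM (lowest, median, highest) in female CON-O and 34.8, 124 and 298 CPM in female HFD-O. In males the same 3 values were 25.9, 43.4 and 191 CPM in CON-O and 30.4, 73.8 and 335 CPM in HFD-O. The highest library was the same as for Hbb in every group: 8 in female CON-O, 22 in female HFD-O, 1 in male CON-O and 21 in male HFD-O. These 4 libraries were also the highest of their groups for Alas2, Slc4a1 and Alox15.

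Alas2, the first enzyme of haem synthesis in red cells, was counted far less often, between 2.72 and 38.7 CPM. Female CON-O had 2.72 CPM in the lowest library, 5.21 at the median and 14.5 in the highest, against 5.36, 14.7 and 38.7 CPM in female HFD-O. All 6 female HFD-O libraries exceeded the median of CON-O and 3 of 6 exceeded its highest library. Male values were 4.24, 6.74 and 18.4 CPM in CON-O and 3.50, 11.0 and 33.6 CPM in HFD-O, with 1 of 6 HFD-O libraries above all CON-O libraries.

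Slc4a1, band 3 of the red cell membrane, had the widest spread, 55.3-fold, but its lowest value rests on 4 counts (0.605 CPM in female CON-O library 4). The female CON-O median was 3.79 CPM and the highest value 10.7, while female HFD-O ran from 4.22 CPM through 12.7 to 33.5. Again 4 of 6 female HFD-O libraries exceeded every CON-O library. Male CON-O ran from 1.36 CPM through 3.35 to 12.9, and male HFD-O from 1.98 CPM through 7.38 to 26.4.

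Alox15 was counted 179 to 3114 times a library and varied 15.6-fold, about as widely as Hbb. Female CON-O libraries held 28.7 CPM at the lowest, 47.4 at the median and 142 at the highest. In female HFD-O the same values were 44.5, 171 and 402 CPM, and 3 of 6 libraries exceeded all those of CON-O. Male CON-O held 31.7, 49.0 and 146 CPM, and male HFD-O 31.95, 115 and 449 CPM, with 2 of 6 HFD-O libraries above all CON-O libraries. In order of the median, female HFD-O stood first and male HFD-O second for all 5 genes, then male CON-O and female CON-O, except that Slc4a1 was higher in female than in male CON-O. The ranges of neighbouring groups in this order overlapped for every gene.

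**Figure D1:**
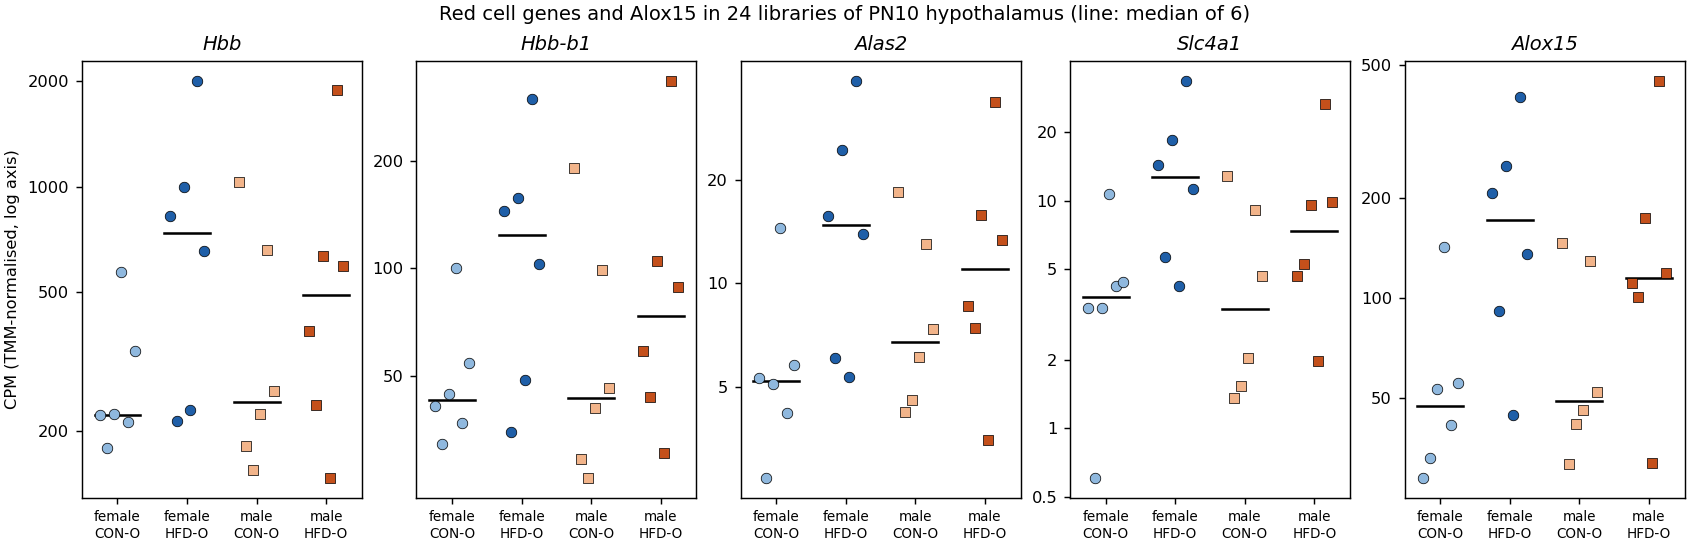
CPM (log axis) of Hbb, Hbb-b1, Alas2, Slc4a1 and Alox15 in each of 24 libraries, 6 a group, with each point 1 library and each line the group median. In all 5 genes the HFD-O groups have the higher medians and overlap with CON-O, and library 8 is the highest of female CON-O and library 1 of male CON-O.

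Maternal diet was compared within each sex with the quasi-likelihood test of edgeR, as the log2 fold change of HFD-O over CON-O. In females it was 1.496 for Hbb (standard error 0.44), 1.34 for Hbb-b1 (0.41), 1.45 for Alas2 (0.45), 1.69 for Slc4a1 (0.49) and 1.67 for Alox15 (0.44). For Alox15 this is a 3.17-fold difference. None of the 5 was called at an adjusted p of 0.05 (0 of 5), in a comparison where 0% of all 11409 genes were called. Unadjusted, 808 genes had a p under 0.05, and edgeR's likelihood ratio test called 50 genes with Alox15 among them, DESeq2 20 and limma-voom 0. The genes were chosen on this contrast, so nothing is read from these counts.

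In males the differences had the same sign and were smaller, between 1.09 and 2.31 times their standard errors. The log2 fold change was 0.63 for Hbb (standard error 0.56), 0.60 for Hbb-b1 (0.56), 0.60 for Alas2 (0.45), 0.85 for Slc4a1 (0.57) and 1.14 for Alox15 (0.49). Again 0 of 5 were called, against 0% of 11476 genes, with 566 genes at an unadjusted p under 0.05 and 0, 1 (Hspa5) and 0 genes called by the likelihood ratio test, DESeq2 and limma-voom. A single library carried much of the male difference: without male HFD-O 21 the log2 fold changes were -0.07 for Hbb, -0.14 for Hbb-b1, 0.12 for Alas2, 0.25 for Slc4a1 and 0.52 for Alox15. Without male CON-O 1 they were between 0.95 for Alas2 and 1.44 for Alox15, and without male CON-O 11, the library lowest in Agrp and Pomc, between 0.51 for Hbb-b1 and 1.05 for Alox15. In females no single library turned the sign, and the Alox15 value ran from 1.30 without HFD-O 22 to 2.15 without CON-O 8.

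Sex was not used to choose the genes and could be tested over all 24 libraries with diet in the fit. None of the 5 differed between males and females (0 of 5), where 0.0258% of 11630 genes were called, the 3 genes Ddx3x, Eif2s3x and Pbdc1, all lower in males and named after their values were seen. For Alox15 the log2 difference of males less females was 0.05 with a 95% interval from -0.67 to 0.76, and for Hbb 0.09 from -0.69 to 0.87 (adjusted p = 0.9997 for both). For Slc4a1 it was -0.26 from -1.06 to 0.55. These intervals leave room for sizeable differences in either direction. The sign of the Hbb, Hbb-b1, Alas2 and Alox15 values turned when single libraries such as male HFD-O 21 were left out, to -0.21 for Hbb and -0.24 for Alox15.

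The interaction of diet and sex gives the diet difference of males less that of females. It is a description here, since the genes were chosen on the diet difference. Its log2 value was -0.87 for Hbb (standard error 0.79), -0.74 for Hbb-b1 (0.77), -0.85 for Alas2 (0.70), -0.84 for Slc4a1 (0.84) and -0.53 for Alox15 (0.74). The 95% interval for Alox15 reached from -1.97 to 0.91 and that for Hbb from -2.42 to 0.68. The quasi-likelihood test called 0 of 5 members and 0% of 11630 genes, with 178 genes at an unadjusted p under 0.05, and the likelihood ratio test, DESeq2 and limma-voom called 0. Nothing is read from these counts about the members.

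Alox15 moved with the red cell genes from library to library. Over 24 libraries the correlation of log2 CPM between Alox15 and Hbb was r = 0.94 (Pearson) and rho = 0.93 (Spearman), and r = 0.90 without libraries 21 and 22. With Alas2 r was 0.96 (rho 0.95), with Hbb-b1 0.93 (rho 0.92) and with Slc4a1 0.93 (rho 0.94). Centring every group on its own mean, which removes the differences between diets and sexes, left r = 0.94 for Hbb and 0.96 for Alas2. The genes share each library's depth and preparation, and since they were chosen for this covariation no p is given. Within groups of 6, r of Alox15 with Hbb was 0.92 in female CON-O, 0.94 in female HFD-O, 0.97 in male CON-O and 0.95 in male HFD-O. In female CON-O it was 0.64 without library 8 alone, the highest of that group, and 0.34 without libraries 8 and 12. For the other members in female CON-O without library 8, r was 0.69 with Hbb-b1, 0.46 with Alas2 and 0.48 with Slc4a1. In male CON-O r with Hbb was 0.96 without library 1 and 0.66 without libraries 1 and 9. In male HFD-O r with Hbb was 0.89 without library 21 and 0.78 without libraries 21 and 19. The slope of log2 Alox15 on log2 Hbb over 24 libraries was 0.98, which is near proportion, and 0.89 with group means removed. Within groups of 6 it ran from 0.80 in male CON-O to 1.23 in female CON-O.

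**Figure D2:**
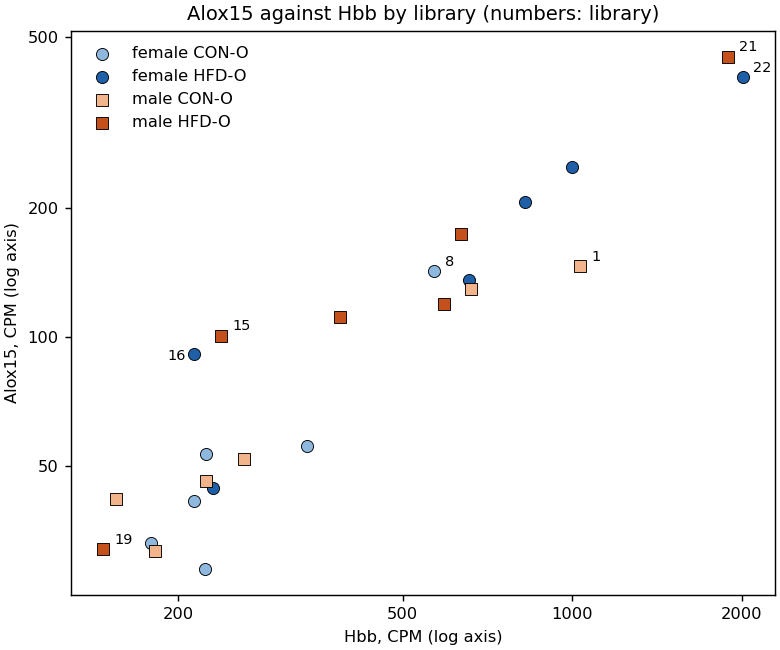
Alox15 CPM against Hbb CPM (both log axes), 1 point a library, coloured by group, with a few library numbers printed. The points run along 1 band from library 19 to libraries 21 and 22 in both diets and sexes (r = 0.94), and libraries 15 and 16 stand above the band.

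The counts of the other genes per 100 counts of Hbb show how far each gene kept its proportion to Hbb. These ratios compare a gene with itself across libraries and say nothing about which gene is more abundant, because they are not scaled by gene length. Hbb-b1 kept between 14.9 and 21.1 counts per 100 Hbb counts in all 24 libraries. Alox15 had 12.9 to 24.97 per 100 Hbb counts in female CON-O (median 19.0) and 14.1 to 26.95 in male CON-O (median 19.7). In HFD-O the medians were 22.8 in females and 25.6 in males, and the ranges overlapped those of CON-O.

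In the plot of these ratios, 2 HFD-O libraries stand apart. Female library 16 had 42.7 Alox15 counts per 100 Hbb counts and male library 15 had 42.3, where no other library exceeded 28.7. Both were low in Hbb (213 and 238 CPM) but not in Alox15 (91.1 and 101 CPM). The same libraries had the highest Slc4a1 per 100 Hbb counts, 2.64 in library 16 and 2.21 in library 15, and library 15 had the highest Alas2, 3.11, of all 24. Their Hbb-b1 ratios, 16.3 and 18.4, were ordinary. Left out of the correlation, they raised r of Alox15 with Hbb from 0.94 to 0.97. The log2 fold change of Alox15 without them was 1.81 in females and 1.24 in males.

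**Figure D3:**
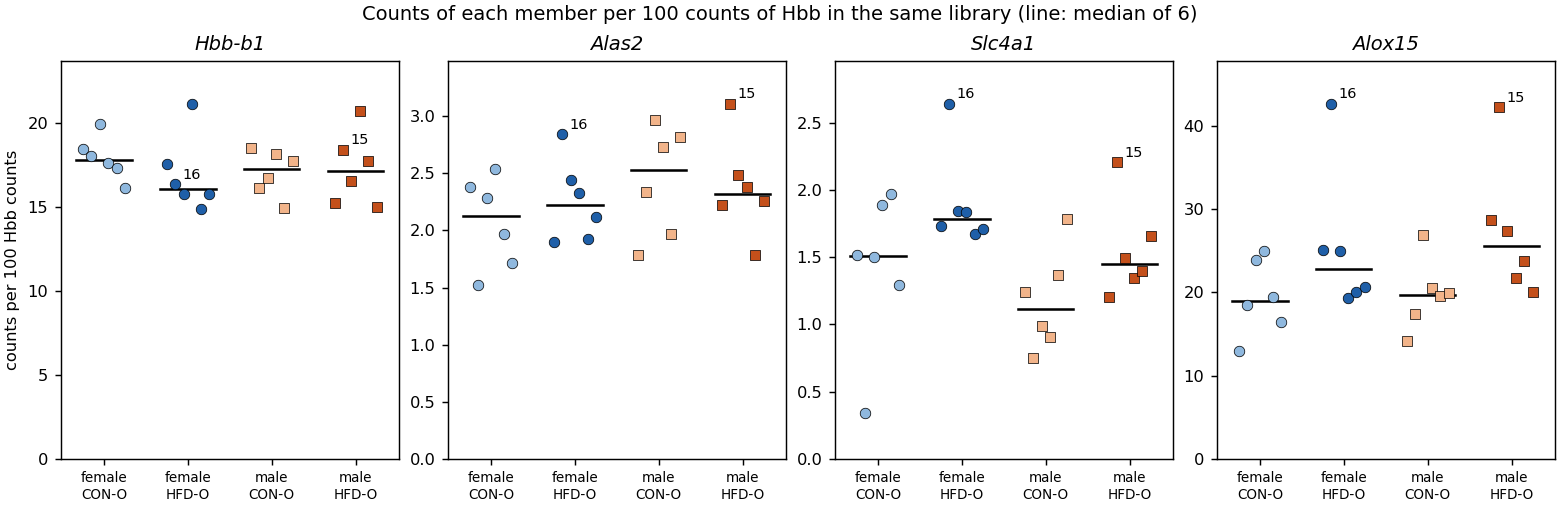
Counts of Hbb-b1, Alas2, Slc4a1 and Alox15 per 100 Hbb counts of the same library, axes from 0, with each point 1 library and each line the median of 6. Hbb-b1 stays between 14.9 and 21.1, while libraries 15 and 16 hold the highest Alox15 ratios, 42.3 and 42.7.

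Genes that shared the pattern of Alox15 were ranked over all 11629 other genes by Spearman's rho across the 24 libraries, with group means removed, as a description. The first was Hbb (rho 0.94), followed by LOC689064 (0.94), Lgals5 (0.94), Hbb-b1 (0.94) and Alas2 (0.93). Next came Hba1 (0.92), Slc4a1 (0.91), Hba2 (0.91) and Cdc25b (0.90). All 4 red cell members were within the first 7, but they were chosen for this covariation, so their places are no separate result. Lgals5 is galectin-5, a sugar-binding protein described from rat reticulocytes. Ranked by likeness to Hbb instead, the alpha-globin row Hba1 and Hbb-b1 came first (0.99 each), Alox15 was sixth and Slc4a1 seventh. Outside the red cell genes, the order for Alox15 went on with Rsad2 (viperin, an interferon-induced antiviral protein, rho 0.81) and Ybx3 (a cold-shock domain protein that binds RNA and DNA, rho 0.80).

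**Figure D4:**
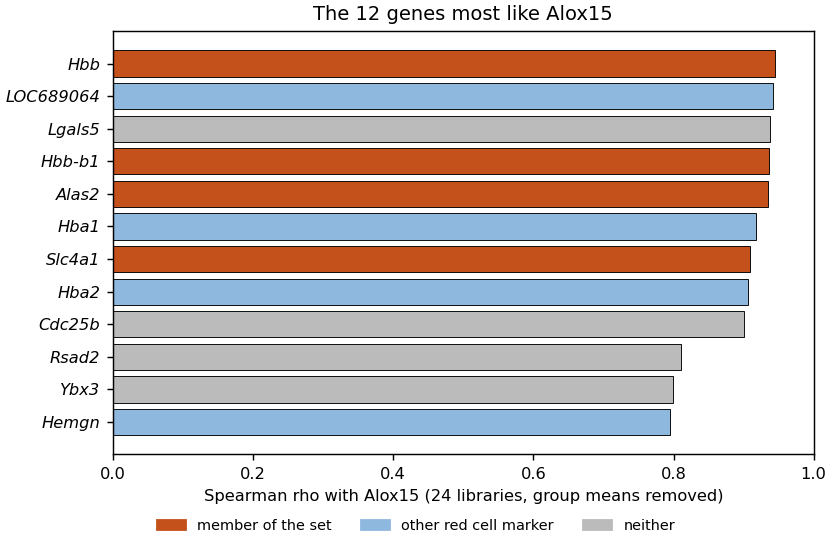
Spearman's rho with Alox15 over 24 libraries after removal of group means for the 12 genes most like it, bars from 0. The red cell genes and Lgals5 lie between 0.91 and 0.94, and Cdc25b, Rsad2, Ybx3 and Hemgn follow at 0.90 to 0.79.

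Lgals5 was counted 3 to 73 times a library. Its medians were 1.80 CPM in female CON-O, 3.62 in female HFD-O, 1.45 in male CON-O and 2.08 in male HFD-O, with the highest values in libraries 8, 22, 1 and 21 as for the members. HFD-O over CON-O gave a log2 fold change of 1.13 in females (standard error 0.49, with edgeR adjusted p = 0.674) and 0.46 in males (0.59, adjusted p = 0.976). Cdc25b, a phosphatase that acts at the entry into mitosis, ran only from 19.2 to 50.9 CPM over the 24 libraries, yet its highest library in each group was again 8, 22, 1 or 21. In females it had a log2 fold change of 0.48 (standard error 0.18, with adjusted p = 0.540). Neither gene was called.

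Of the other red cell markers, 7 outside the members passed the count filter in females, and all 7 were higher in HFD-O with a median log2 fold change of 1.01, beside -0.001 over all genes (5640 of 11409 above 0). None was called (0 of 7), and 5 had an unadjusted p under 0.05. The list was drawn up with earlier results of these data known, so these counts are descriptions. Its globin rows Hba1, Hba2, LOC689064 and LOC287167 also moved with the member Hbb (rho 0.91 to 0.99 with group means removed). The alpha-globin row Hba1 had a log2 fold change of 1.34 (standard error 0.41, edgeR adjusted p = 0.395) and Hba2 1.32 (0.41, adjusted p = 0.395). LOC689064 had 1.23 (0.43, adjusted p = 0.520) and Rhd, the carrier of the rhesus antigen, 0.54 (0.19, adjusted p = 0.536). In males 6 of 7 were higher, with a median of 0.35 and 0 called. Reads of the related globin genes may have been split between rows in a way the sources used here do not state, so single globin rows are uncertain.

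Markers of red cell precursors were scarce. Gata1, a transcription factor of the precursor, reached at most 1.32 CPM and was above 0 in 15 of 24 libraries, Klf1, the factor that switches on adult beta-globin, reached 2.26 CPM, and Trim58, which is made late in maturation, at most 0.397 CPM. Ahsp, the chaperone of free alpha chains, ran from 0.139 to 7.21 CPM and was highest in library 21. The list of haem synthesis held enzymes of the pathway and mitochondrial carriers. Outside Alas2, 0 of its 9 tested genes were called in females, 7 were higher and 2 lower, and the median log2 fold change was 0.03. Urod, a decarboxylase of this pathway, had 0.16 (standard error 0.07, edgeR adjusted p = 0.668). In males 5 of 9 were higher, with a median of 0.00. Slc25a37, mitoferrin-1, which carries iron into the mitochondria of red cell precursors, had 0.03 in females (standard error 0.24, adjusted p = 0.985) and 0.35 in males (0.28, adjusted p = 0.960). It stood at place 43 of 11629 in likeness to Alox15, with rho 0.66.

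Over all genes 5640 of 11409 were higher in females (median log2 fold change -0.001) and 5690 of 11476 in males (median -0.0009), beside which the counts of the further lists are given. Of 10 genes of the membrane and its skeleton, 8 were higher in females with a median log2 fold change of 0.15 and 7 in males with 0.05, and 0 were called. Among 11 genes of reticulocyte maturation other than Alox15, 6 were higher in each sex, with medians of 0.00 in females and 0.01 in males, and 0 were called. Tfrc, the transferrin receptor that brings in iron, had 0.22 in females (standard error 0.08, adjusted p = 0.542) and 0.20 in males (0.08, adjusted p = 0.957). Bnip3l, the receptor that marks mitochondria for removal in reticulocytes of mice, had 0.10 in females (0.04, adjusted p = 0.596). Of 11 genes that clear haemoglobin, haem and iron, 9 were higher in each sex, with medians of 0.10 in females and 0.09 in males, and 0 were called. Hp, haptoglobin, is not among the 11, because it did not pass the count filter within either sex. It was above 0 in 24 libraries, and its interaction of diet and sex had a log2 value of 2.25 (standard error 1.15). The paper lists Hp among the genes lower in female HFD-O. Hmox1, haem oxygenase, had 0.17 in females (0.14, adjusted p = 0.816).

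Other lipoxygenases were counted less often than Alox15. The fold ranges of Alox5, Alox12 and Alox15b are uncertain at such low levels. Alox5, the 5-lipoxygenase of leukotriene synthesis, stood between 0.557 and 3.61 CPM, Alox12 between 0.274 and 1.61 CPM and Alox15b between 0.143 and 1.27 CPM. Aloxe3, known from skin, ran from 13.7 to 22.2 CPM, a 1.61-fold range. Of 10 genes of this list outside Alox15, 8 were higher in females with a median log2 fold change of 0.11 and 0 were called. In males 4 of 9 were higher, with a median of -0.03 and 0 called. Pla2g4a, the phospholipase that frees arachidonic acid from membranes, had 0.43 in females (standard error 0.19, adjusted p = 0.674) and 0.44 in males (0.21, adjusted p = 0.957).

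Markers of other blood cells were counted as well. The 8 listed genes of eosinophils and mast cells summed to 0.152 to 1.62 CPM a library, and Epx, the eosinophil peroxidase, was above 0 in 18 of 24 libraries. Lymphocyte genes summed to 0.411 to 2.02 CPM over 6 genes, platelet genes to 0.650 to 4.18 CPM over 3 genes, and neutrophil genes to 5.16 to 10.7 CPM over 11 genes. None of the eosinophil, mast cell or lymphocyte genes passed the count filter. Of the markers of neutrophils, Lcn2, Csf3r and Prtn3 were above 0 in 24 libraries, S100a9 in 20, Camp in 19, Mpo in 15, S100a8 in 12, and Mmp8 and Cxcr2 in 5 each. Neutrophil genes were 1 of 3 higher in females and 3 of 3 in males, with 0 called. Pf4, platelet factor 4, passed the filter in the male fit but not the female one, with a log2 fold change of 1.11 (standard error 0.32, adjusted p = 0.949).

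Genes of macrophages at the brain's borders and of the leptomeninges were also higher in HFD-O, beside the red cell genes. These lists too were drawn up with earlier results of these data known, so their counts are descriptions. The 3 tested border macrophage genes were higher in HFD-O of both sexes, with a female median of 0.80, and 0 were called. Mrc1, the mannose receptor, had 0.80 in females (standard error 0.22, adjusted p = 0.270) and Lyve1, a hyaluronan receptor, 0.56 (0.14, adjusted p = 0.243). Border macrophage genes summed to 10.8 to 19.6 CPM in female CON-O and 19.5 to 32.2 CPM in female HFD-O, and to 13.0 to 26.2 and 17.5 to 43.5 CPM in male CON-O and HFD-O. Leptomeningeal genes, which mark the inner membranes around the brain, were higher in 14 of 14 cases in females (median 1.22) and in 13 of 14 in males (median 0.84), with 0 called. They summed to 170 to 518 CPM in female CON-O, 289 to 967 in female HFD-O, 161 to 1019 in male CON-O and 277 to 1521 in male HFD-O. Among them, Igf2, a growth factor, had 1.32 in females (0.29, adjusted p = 0.214). Endothelial genes were 8 of 10 higher in females (median 0.18) and 9 of 10 in males (median 0.13), with 0 called.

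How far the members' diet difference stood beside these measures was described by adding each in turn to the fit. The score of other red cell markers was the mean log2 CPM of 10 genes outside the members. It included the globin rows Hba1, Hba2, LOC689064 and LOC287167, which moved with Hbb (rho 0.91 to 0.99 with group means removed). The members were also chosen for varying together, so a shift of their values towards 0 with this score is no separate result. With it, the female log2 fold change was -0.11 for Hbb (standard error 0.12), -0.12 for Hbb-b1 (0.11), 0.01 for Alas2 (0.24) and 0.27 for Slc4a1 (0.34), and that of Alox15 was 0.41 (0.27) in place of 1.67. In males Alox15 had 0.53 (0.20) with the score in place of 1.14, while Hbb had -0.07 (0.13). With the leptomeningeal score, a mean over 15 genes, the female values were 0.28 for Hbb (0.64) and 0.50 for Alox15 (0.62), and the male values 0.11 (0.46) and 0.69 (0.44). The leptomeningeal score correlated with Alox15 less than Hbb did, at r = 0.74 over 24 libraries and 0.62 with group means removed. These fits describe how the values moved together, and the part of either tissue in the diet difference was not tested.

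**Figure D5:**
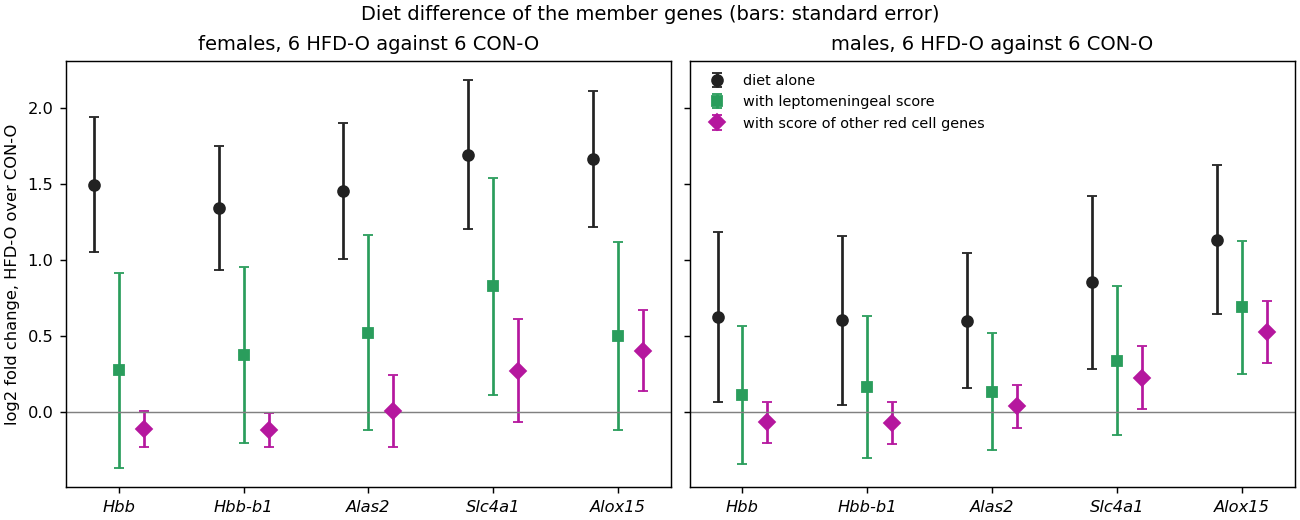
Log2 fold change of HFD-O over CON-O for the 5 genes in females and in males, with bars of 1 standard error, from the fit of diet alone and with either score added. With the score of other red cell genes Hbb, Hbb-b1 and Alas2 lie near 0 in both sexes. Alox15 then lies at 0.41 in females and 0.53 in males. That score includes other globin rows, so the shift towards 0 is no separate result.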

How the data were processed

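An external facility prepared TruSeq libraries and sequenced them on an Illumina HiSeq. The authors describe FastQC, Trimmomatic, Bowtie2 and edgeR, while the submitters' processing notes list FastQC, TopHat and edgeR with build rn6. The counting program, annotation and strand setting are stated in none of the sources read. For each sex 1 table was deposited by the authors with whole-number counts per gene and library, and every value rests on these deposited counts. A further 24 per-sample columns hold rescaled counts and were not used. The authors' comparison columns (fold change, mean level, likelihood ratio, p-values and dispersion) were not used either. Rows with a spreadsheet date for a name (23 in females, 24 in males) were left out of the join of 13841 genes.

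The analysis used edgeR 4.0.16 in R 4.3.3 (TMM, filterByExpr with minimum count 10 and minimum total count 15, quasi-likelihood test, Benjamini-Hochberg adjustment over all genes kept, threshold 0.05). Alternatives used limma 3.58.1 and DESeq2 1.42.0, other scalings, no filter, and each library left out. Log2 CPM had a prior count of 2. Standard errors are the fold change over the square root of F. Promoters came from RefSeq (GRCr8), and Python 3.11.15 with matplotlib 3.10.9 and Biopython 1.88 aligned them and drew the plots. The code was tested on simulated data. Any 2 libraries of a group differed beyond sampling noise (chi-square per gene from 2.24 to 12.7).

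The 5 genes and the 15 gene lists were chosen with earlier results of these data known. Named genes are the 5 members, up to 4 genes a list with the smallest female p, markers at or near 0, and the genes most like Alox15 and Hbb. Some further genes (Gata1, Klf1, Trim58, Ahsp, other lipoxygenases and the peptide genes) were named for their role.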

Additional observations from a re-analysis of the deposited data

Results flagged for a closer look

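Within groups of 6, each group's most distant library was compared with the others by Dixon's ratio for the CPM of the 5 genes and for the counts per 100 Hbb counts of 4 of them. Of 36 such groups, 10 held a library that stood apart. The usual chance rate of about 1 in 20 holds for normally distributed values. The CPM and ratios were not put on a log scale and range widely, so no excess over chance is read from this count. The genes move together, so these are not 10 separate events, and 3 libraries account for all of them.

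Male HFD-O library 21 stood above its group in Hbb (1888 CPM, next 635), Hbb-b1 (335, next 105), Slc4a1 (26.4, next 9.83) and Alox15 (449, next 174). Female CON-O library 8 stood above its group in Hbb-b1 (100.01 CPM, next 54.4), Alas2 (14.5, next 5.79), Slc4a1 (10.7, next 4.38) and Alox15 (142, next 55.5). Female HFD-O library 16 stood above its group in the ratio to Hbb, with 2.64 Slc4a1 counts per 100 Hbb counts (next 1.84) and 42.7 Alox15 counts per 100 Hbb counts (next 25.1).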

How the results depend on the processing

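The 5 genes were chosen on their diet difference, so nothing is read from a value of it that passed the threshold. Of 212 alternative values of this difference within a sex, 206 kept its direction. The threshold was passed by 1 of them, Alox15 in females by the likelihood ratio test (adjusted p = 0.0386). The 6 that turned were Hbb and Hbb-b1, with the score of other red cell markers (-0.11 and -0.12 in females, -0.067 and -0.071 in males) and without male HFD-O 21 (-0.069 and -0.14). Leaving out each library in turn, the female log2 fold changes ran from 1.00 to 1.80 for Hbb, 0.92 to 1.65 for Hbb-b1, 1.05 to 1.90 for Alas2, 1.27 to 2.19 for Slc4a1 and 1.30 to 2.15 for Alox15. In males they ran from -0.069 to 1.13 for Hbb, -0.14 to 1.19 for Hbb-b1, 0.12 to 0.95 for Alas2, 0.25 to 1.35 for Slc4a1 and 0.52 to 1.44 for Alox15. The difference between the sexes changed sign easily. By limma-voom it was -0.087 for Hbb, -0.13 for Hbb-b1, -0.032 for Alas2 and -0.058 for Alox15, and without libraries 21 and 22, chosen after seeing the data, -0.014 for Hbb-b1 and -0.041 for Alox15. Leaving out each library it ran from -0.21 to 0.35 for Hbb, -0.24 to 0.33 for Hbb-b1, -0.19 to 0.27 for Alas2, -0.54 to 0.013 for Slc4a1 and -0.24 to 0.25 for Alox15. With neighbouring library numbers (a male and the next female) as a block, a pairing that the labels do not give and that was chosen after seeing the data, it was -0.10 for Hbb, -0.084 for Hbb-b1, -0.0039 for Alas2 and -0.037 for Alox15 (standard error 0.22), and that fit called 2 genes (Eif2s3x and Pbdc1) between the sexes and 0 for the interaction, where the members' values ran from -0.58 to -0.83 and none turned. The cause was not tested.

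The number of genes called in females was 50 by the likelihood ratio test, 20 by DESeq2 and 0 to 10 without 1 library (10 without HFD-O 20). In males DESeq2 called 1 (Hspa5), and 0 were called without any 1 library. Between the sexes the likelihood ratio test called 5 (Ddx3x, Eif2s3x, Kiss1, Pbdc1 and Rpl39l), and leaving out a library gave 2 to 5 (5 without male HFD-O 17, with Kiss1 and LOC680227 added). For the interaction it was 0 in each fit. The correlation of Alox15 with Hbb was 0.90 without the 2 farthest libraries and 0.97 without libraries 15 and 16, also chosen after seeing the data, and that with Hbb-b1 0.88 and 0.96. The labels give no litter and no number shared between groups. The only paired fit was therefore the one with neighbouring library numbers as a block. Pups of both sexes may share litters, which the other fits of sex and of the interaction do not take into account. Slc4a1 in CON-O rests on as few as 4 counts a library.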

Other observations

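Libraries with neighbouring numbers, a male and the next female, had similar levels in HFD-O. This was noticed after the values were seen and is given as a description with no test. Libraries 21 and 22 were the highest 2 of all 24 in each of the 5 genes, and libraries 19 and 20 the lowest 2 of the 12 HFD-O libraries in Alas2, Slc4a1 and Alox15. Over the 6 HFD-O pairs the correlation of log2 CPM was r = 0.94 for Alox15 (rho 0.94) and 0.93 for Hbb (rho 0.89), with r = 0.76 and 0.86 without the 2 farthest pairs. In the 6 CON-O pairs r was -0.38 for Alox15 (rho -0.26) and -0.21 for Hbb (rho -0.09). Without the 2 farthest pairs the CON-O values turned to 0.60 for Alox15 and 0.66 for Hbb, so they rest on very few pairs. What neighbouring numbers have in common is not given in the sources used here. Libraries 15 and 16, which stood apart in the ratio of Alox15 to Hbb, are such neighbours.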
